A study of Mus musculus with 16 samples.

Results

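The genes described here encode the proteins of the cytosolic ribosome. They were taken by a rule on symbols (Rpl or Rps followed by a number and at most 1 letter a, x or l, together with Rplp0 to Rplp2 and Rpsa, and without the ribosomal S6 kinases), which uses no measured value, although these genes were picked as a group with earlier results of the data known. The rule found 67 genes among the 16504 named on the array, of which 25 belong to the small and 42 to the large subunit. RefSeq lists 81 protein-coding mouse genes with such symbols, and the other 14 had no probe annotated to their symbol alone. Probes annotated to more than 1 gene were treated as unnamed. All 67 passed the filter on missing values and were tested, 66 of them with a value in every pool.

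Male C57/BL6 mice aged 8 weeks inhaled aerosolized lipopolysaccharide (LPS), a cell envelope component of Gram-negative bacteria, for 5 days, and control mice of the same strain, sex and age breathed air for 5 days. Lungs were taken at the end of day 5. The RNA of 3 animals made up each of 4 LPS pools and each of 4 air pools, so the spread between pools is that of averages over 3 mice. Each pool was measured on 2 arrays with the dyes exchanged, against a universal mouse reference RNA, a commercial mixture of RNA from mouse cell lines. A level below is log2(lung/reference) of a pool, a difference is LPS minus air on the same log2 scale with its standard error (SE), and adjusted p-values come from limma over all 20629 features tested.

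A cytosolic ribosome joins a small subunit, which holds the mRNA and reads its codons, to a large subunit, which links the amino acids and passes the new chain through an exit tunnel. Most ribosomal proteins are made in matched amounts. In vertebrates their mRNAs begin with a run of pyrimidines after a first C, the 5′ TOP element, through which mTOR signalling controls their translation. The amount of an mRNA on an array does not show how much of it is translated.

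The stretches around the starts of 9 genes are shown with short motifs marked, and whether they hold the element itself was not tested. They belong to the 7 genes that passed the test, to Rps27, the paralog of Rps27l, and to Rps4x, the gene whose LPS pools all lay below its air pools. Each has 60 bases on the strand of the gene, 40 before the first listed start and 20 from the start on, from RefSeq GRCm38.p6. Capitals mark CTTTC, a plain stand-in for the TOP element, and CGGAAG or its reverse complement CTTCCG, the core bound by ETS family factors such as GABPA.
Rps26 (chr10:128626487-128626546, minus strand): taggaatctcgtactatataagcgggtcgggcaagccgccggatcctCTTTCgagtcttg
Rps27l (chr9:66946046-66946105, plus strand): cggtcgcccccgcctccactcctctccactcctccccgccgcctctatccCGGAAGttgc
Rpl10a (chr17:28328431-28328490, plus strand): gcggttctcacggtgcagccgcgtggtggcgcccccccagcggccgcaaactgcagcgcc
Rpl36a (chrX:134585614-134585673, plus strand): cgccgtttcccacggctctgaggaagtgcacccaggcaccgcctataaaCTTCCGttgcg
Rpl28 (chr7:4792925-4792984, plus strand): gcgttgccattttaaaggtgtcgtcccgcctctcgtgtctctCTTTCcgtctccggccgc
Rpl15 (chr14:18270967-18271026, minus strand): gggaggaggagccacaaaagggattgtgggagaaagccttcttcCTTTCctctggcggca
Rpl7a (chr2:26910767-26910826, plus strand): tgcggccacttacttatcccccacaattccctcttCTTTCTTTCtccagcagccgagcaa
Rps27 (chr3:90213629-90213688, minus strand): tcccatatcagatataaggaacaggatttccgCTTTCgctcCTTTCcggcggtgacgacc
Rps4x (chrX:102189372-102189431, minus strand): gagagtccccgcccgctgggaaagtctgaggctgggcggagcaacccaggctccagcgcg

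Rps26, Rpl28, Rpl15, Rpl7a and Rps27 showed CTTTC within 20 bases of the listed start, and Rps27l, Rpl10a, Rpl36a and Rps4x did not. Among the 54 members with an entry in the promoter table, 15 (27.8%) held CTTTC on the gene's strand there, against 5.38% of all 27025 entries. On the opposite strand it was found in 3 members (5.56%) and in 4.70% of all entries. CGGAAG on either strand within 250 bases before to 50 bases after the start was found for 39 of the 54 (72.2%), against 17.2% of all entries. Of the 7 genes that passed the test, 4 held CTTTC and 5 held CGGAAG. The 2 motifs can share at most 1 base. A match describes letters in these windows and not a used site, and the listed start can differ from the one used in lung. A window without CTTTC does not show that a gene lacks the TOP element.

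Signal was positive in both channels on 97.2% to 99.5% of spots of the 15 arrays used, and the median lung signal of an array was 4.28 to 28.2 times the local background, which, with the number of arrays, limits the precision. The members lay far above this, with a median of 99.4 times the background over the 67 genes, and 2 of them were dimmer than the background on any array. Image analysis used program version 2.2.3 for LPS pools 1 and 2 and air pools 3 and 4, and version 2.2.4 for the other pools, so each version holds both exposures. The sample titles say 1 week for both groups. Image names in the file headers carry a number, followed by the letter W, that the labels do not explain. It was 1 on every LPS array, 4 on the arrays of air pools 1 and 2 and 8 on the remaining air arrays. Number and exposure thus cannot be told apart. Among the air pools, number 4 went with version 2.2.4 and number 8 with version 2.2.3, so these cannot be told apart either. For air pool 4, the file of the Cy3 lung array combines images of 2 arrays and was left out, so this pool rests on 1 array. Pseudogenes and close relatives are common among these genes, and signal from such copies cannot be told apart from that of the named gene. Every gene name depends on how the annotation was laid over the grid of spots, which the data themselves had to settle.

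After LPS, 7 of the 67 ribosomal protein genes rose at an adjusted p under 0.05 (10.4%, limma), against 5.95% of all features, and 0 fell, against 0.713% (6.67% in either direction). The 7 were Rps26 and Rps27l of the small subunit and Rpl10a, Rpl36a, Rpl28, Rpl15 and Rpl7a of the large subunit, with rises between 1.44-fold and 2.0-fold. The other 60 did not pass the test. The median difference over the 67 genes was 0.33, beside 0.01 over all features, and 56 of the 67 differences were positive (39 with log ratios scaled between arrays), beside 51.2% of all features. At an unadjusted p under 0.05, 25 members were higher, beside 14.8% of all features, and 1 was lower, beside 7.72%. The count of 7 depended on processing. It was 0 with the array of air pool 4 that joins 2 images included (2.31% of all features), 1 (Rps27l) with log ratios scaled between arrays (1.49%, against 5.55% of all features) and 2 (Rps27l and Rps26) with median centring (2.99%, against 3.33%), so under these settings the members' share was not above that of all features.

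**Figure D1:**
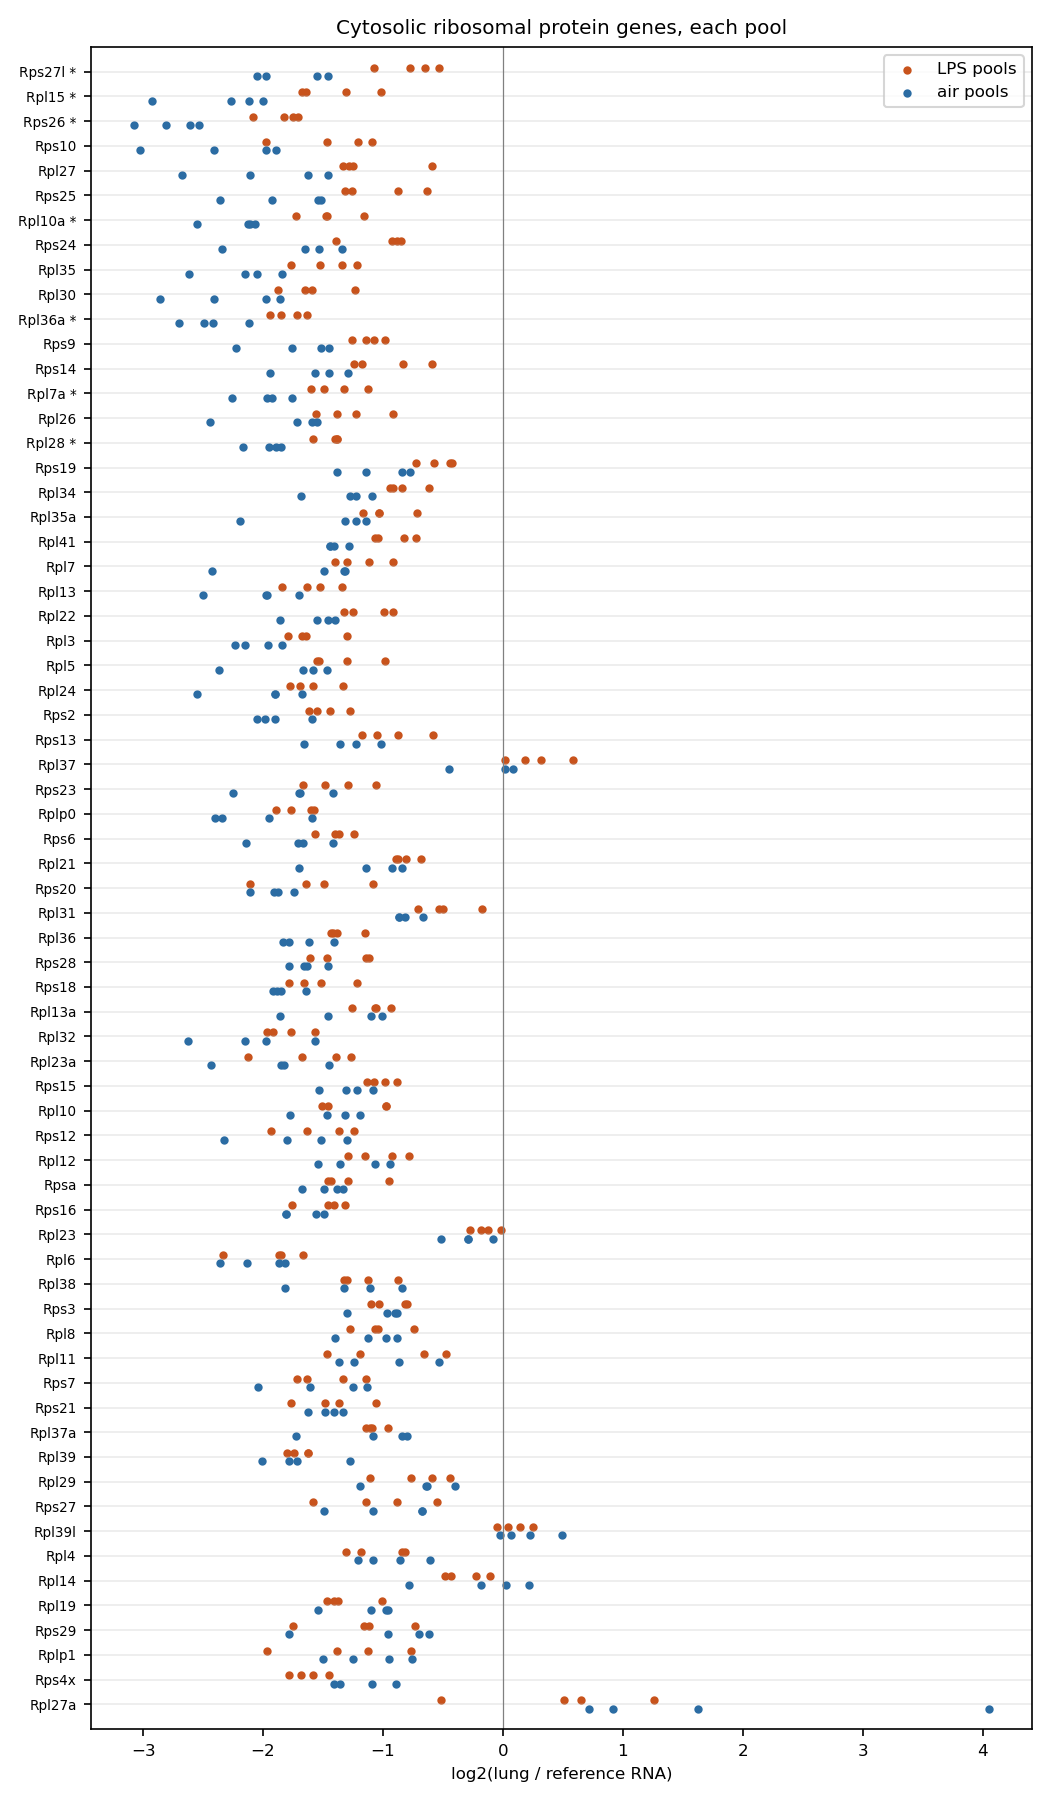
Level of each of the 67 genes in each pool, as log2(lung/reference) on the x axis, with genes ordered by their LPS minus air difference and an asterisk at the 7 with an adjusted p under 0.05. Each point is 1 pool; the LPS points lie mostly to the right of the air points in the upper part, and Rpl27a at the bottom has an air pool at 4.05.

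Rps26, a small subunit protein near the channel where mRNA leaves the ribosome, had levels of -1.75, -1.83, -2.08 and -1.71 in LPS pools 1 to 4, against -2.54, -2.61, -3.08 and -2.81 in air pools 1 to 4. Every LPS pool lay above every air pool, by at least the distance between -2.08 and -2.54. It rose 1.89-fold, by 0.92 ± 0.15 (SE over 4 pools in each group, adjusted p = 0.00662 by limma). Its level in air lungs was below the reference, at -2.76 ± 0.24 (SD, n = 4), and in LPS lungs it averaged -1.84 ± 0.17 (SD, n = 4).

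Rps27l, a paralog of Rps27 known as a p53 target, had -0.54, -0.77, -0.65 and -1.08 in the LPS pools, against -1.46, -1.55, -2.05 and -1.97 in the air pools. The groups did not overlap, and the rise of 0.999 ± 0.18 (2.0-fold, adjusted p = 0.00935 by limma) was the largest positive difference among the 67 genes in this fit. Rps27 itself, the copy made in most tissues, had -1.58, -1.14, -0.55 and -0.88 in the LPS pools, against -0.67, -1.08, -1.49 and -0.68 in the air pools. The Rps27 groups overlapped throughout, with a difference of -0.06 ± 0.25 (limma adjusted p = 0.912). The difference between the paralogs was not tested.

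In the large subunit, Rpl10a, which forms the mobile stalk where spent tRNA leaves, had -1.16, -1.47, -1.72 and -1.47 in the LPS pools, against -2.11, -2.12, -2.55 and -2.07 in the air pools. All LPS pools were above all air pools, air pool 3 was lowest, and the rise was 0.76 ± 0.16 (1.69-fold, limma adjusted p = 0.0226). Rpl36a, a protein of the same exit site, had -1.63, -1.71, -1.94 and -1.85 in the LPS pools, against -2.42, -2.49, -2.70 and -2.12 in the air pools. It rose by 0.65 ± 0.15 (1.56-fold, limma adjusted p = 0.0308), with groups that did not overlap.

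Rpl15, which is needed for processing of the large ribosomal RNA precursor in human cells, had -1.02, -1.31, -1.67 and -1.65 in the LPS pools, against -2.0, -2.11, -2.93 and -2.27 in the air pools. Here too the groups were apart, with air pool 3 the lowest and LPS pool 1 the highest (rise 0.92 ± 0.23, 1.89-fold, limma adjusted p = 0.0374). Rpl28, a protein that budding yeast lacks, had -1.39, -1.40, -1.58 and -1.38 in the LPS pools, against -1.85, -1.95, -2.17 and -1.89 in the air pools. Its pools were the most tightly grouped of the 7 genes, and the rise was 0.53 ± 0.12 (1.44-fold, limma adjusted p = 0.0325). Rpl7a, a further large subunit protein, had -1.33, -1.49, -1.60 and -1.13 in the LPS pools, against -1.76, -1.93, -2.26 and -1.97 in the air pools. With groups again apart, it rose by 0.59 ± 0.15 (1.51-fold, limma adjusted p = 0.0487), just inside the threshold.

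The 7 calls differed in how far they held when 1 pool was left out. Rps26 and Rps27l stayed past the threshold in all 8 such fits and Rpl10a in 6, while Rpl15 did in 2 and Rpl36a, Rpl28 and Rpl7a in 1 each. Fits without LPS pool 1 or without LPS pool 2 each called 2 members higher (2.99%), against 3.23% and 3.40% of all features. Fits without LPS pool 3, LPS pool 4 or air pool 3 called 3 members (4.48%, 4.48% and 4.55%), against 3.67%, 4.55% and 4.17% of all features. Without air pool 2 or air pool 4 the fits called 4 members (6.06% and 5.97%), against 5.65% and 3.44%, and without air pool 1 the fit called 7 (10.6%), against 5.38%.

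Just outside the threshold stood Rpl41, the shortest protein of the ribosome, with a difference of 0.48 ± 0.13 (limma adjusted p = 0.0529). Its levels were -0.73, -1.04, -1.07 and -0.83 in the LPS pools, against -1.44, -1.41, -1.44 and -1.29 in the air pools, without overlap. The spot tables hold an undefined factor named SF, which was below 1 for Rpl41 on 3 arrays. Without such spots its difference was 0.54 and passed the test. Rpl35 and Rps25 followed, with differences of 0.70 ± 0.19 and 0.82 ± 0.22 (limma adjusted p = 0.0545 and 0.0573).

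Over the 66 members with 8 values, all 4 LPS pools lay above all 4 air pools for 17 (25.8%), against 11.3% of all features with 8 values. The reverse order was found for 1 member, Rps4x, against 5.44% of all features. Besides the 7 that passed the test and Rpl41, the 17 held Rpl35, Rps25, Rps9, Rps14, Rpl27, Rpl34, Rps19, Rpl3 and Rpl22, with differences of 0.44 to 0.85.

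Rps4x, an X-linked gene for a small subunit protein, had -1.79, -1.68, -1.45 and -1.58 in the LPS pools, against -1.41, -1.36, -1.09 and -0.89 in the air pools. Its difference was -0.44 ± 0.15 and did not pass the test (limma adjusted p = 0.119). It was the only member with a negative difference at an unadjusted p under 0.05. The difference was -0.74 among the version 2.2.3 pools and -0.13 among the version 2.2.4 pools. Its lung signal was 6.94 times the local background, far dimmer than that of most members.

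Rpl27a, a large subunit protein, had the most negative difference, -1.35 ± 0.66 (limma adjusted p = 0.259). Its levels were -0.52, 0.51, 0.65 and 1.26 in the LPS pools, against 0.72, 0.92, 1.63 and 4.05 in the air pools. The groups overlapped, and air pool 4, measured on 1 array, stood far above the rest. Without air pool 4 the difference was -0.61. A second, dimmer probe of Rpl27a averaged -0.23 in LPS pools and -0.24 in air pools, a difference of 0.01, so the 2 probes of this gene disagreed. The dimmer probe is annotated to the RefSeq mRNA of Rpl27a, and the probe used to another cDNA record. Which probe reports the Rpl27a mRNA was not tested.

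Of the 5 genes with 2 probes, Rplp0 and Rpl30 had positive differences on both. The other probe of Rplp0 gave 0.24, beside 0.36 for the one used, and the other probe of Rpl30 gave 0.38, beside 0.69. For Rps12 the brighter probe gave 0.19 and the dimmer one -0.37, and for Rps18 they gave 0.28 and -0.31. Where a gene's probes disagreed, the brighter one was used by rule. With the mean of a gene's probes the count of members higher in LPS was again 7 (10.4%, against 5.98% of all features).

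The stalk of the large subunit recruits the translation factors that use GTP. Its base, Rplp0, often used as a reference gene in quantitative PCR, had -1.77, -1.89, -1.58 and -1.60 in the LPS pools, against -2.35, -1.95, -2.40 and -1.59 in the air pools. The groups overlapped at air pool 4, and the difference of 0.36 ± 0.19 did not pass the test (limma adjusted p = 0.286) and was -0.03 with log ratios scaled between arrays. Rplp1, which forms the flexible arm, had -1.97, -1.13, -0.77 and -1.38 in the LPS pools, against -0.95, -1.50, -1.25 and -0.76 in the air pools, and no order between the groups was visible (difference -0.20 ± 0.25, limma adjusted p = 0.689).

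Among small subunit proteins with known roles outside or beyond the core ribosome, Rps19, whose human gene is mutated in Diamond-Blackfan anaemia, had -0.44, -0.57, -0.42 and -0.73 in the LPS pools, against -0.77, -0.84, -1.14 and -1.38 in the air pools. The groups did not overlap, but the difference of 0.49 ± 0.16 missed the threshold (limma adjusted p = 0.102). Rps6, the substrate of the S6 kinases, differed by 0.34 ± 0.17 and Rpsa, also known as the laminin receptor, by 0.19 ± 0.15, both with overlapping groups. Rps3, at the mRNA entry channel, averaged -0.94 ± 0.15 in LPS pools and -1.01 ± 0.19 in air pools (SD, n = 4 each), a difference of 0.08 ± 0.14.

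In the large subunit, Rpl3, next to the peptidyl transferase centre, differed by 0.44 ± 0.15, and Rpl22, needed for T cell development in mice, by 0.45 ± 0.15. Neither passed the test (limma adjusted p = 0.115 and 0.116), although the groups of both were apart. Rpl5 and Rpl11 bind 5S RNA and, outside the ribosome, the p53 regulator Mdm2. Rpl5 averaged -1.34 ± 0.26 in LPS pools and -1.77 ± 0.41 in air pools, and Rpl11 averaged -0.95 ± 0.46 in LPS pools and -1.0 ± 0.38 in air pools (SD, n = 4 each). Their differences were 0.43 ± 0.21 and 0.05 ± 0.25, and neither passed the test.

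Rpl13a, which in human monocytes can leave the ribosome to silence inflammatory mRNAs, differed by 0.28 ± 0.19 (limma adjusted p = 0.414). Its levels were -0.93, -1.06, -1.06 and -1.26 in the LPS pools, against -1.01, -1.45, -1.86 and -1.10 in the air pools, with overlap. Rpl10, which joins the large subunit late in its maturation, differed by 0.21 ± 0.18, and Rpl38, which favours translation of some Hox mRNAs in mice, by 0.11 ± 0.21. Rpl39, a small protein lining the exit tunnel, averaged -1.70 ± 0.09 in LPS pools and -1.69 ± 0.31 in air pools (SD, n = 4 each). Its paralog Rpl39l, best known from testis, had 0.10 ± 0.13 in LPS pools and 0.19 ± 0.23 in air pools, and neither paralog passed the test.

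Other negative differences were small. They were -0.17 ± 0.17 for Rpl19, which bridges the subunits, -0.17 ± 0.28 for the zinc-binding Rps29, -0.13 ± 0.21 for Rpl14 and -0.10 ± 0.17 for Rpl4, whose long loop reaches the exit tunnel. For all 4 the groups overlapped. In all, 11 members had a negative difference. By subunit, 2 of 25 small subunit genes (8%) and 5 of 42 large subunit genes (11.9%) rose, beside 5.95% of all features, and the median difference was 0.33 in both. Of the 37 members not named by the fixed rule, 0 passed the test, and their differences ran from -0.01 for Rpl29 to 0.89 ± 0.27 for Rps10.

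The pools differed as a whole over these genes. The median level of the 67 genes was -1.03, -1.33, -1.24 and -1.30 in LPS pools 1 to 4, against -1.41, -1.55, -1.86 and -1.37 in air pools 1 to 4. The means of these medians were -1.23 ± 0.14 in LPS pools and -1.55 ± 0.22 in air pools (SD, n = 4 each), and the lowest LPS pool and the highest air pool were close, at -1.33 and -1.37. Air pool 3 was the lowest air pool for 55 of the 67 genes, against 35.9% of all features. LPS pool 1 was the highest LPS pool for 42 of the 67, against 32.2% of all features. Without air pool 3 the median difference over the members was 0.23, and without LPS pool 1 it was 0.25.

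**Figure D2:**
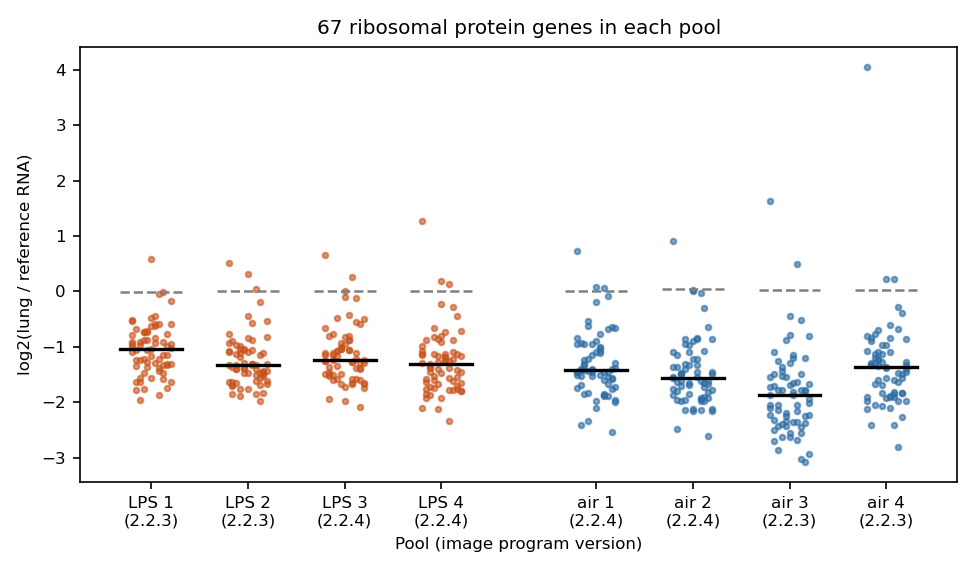
Levels of the 67 genes in each LPS and air pool, as log2(lung/reference) on the y axis, with the image program version under each pool. Points are genes, solid lines the median of the 67 genes and dashed lines the median of all features; the member medians lie between -1.33 and -1.03 in LPS pools and between -1.86 and -1.37 in air pools.

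The difference was unequal between the 2 image program versions. Among air pools these also differ in the number of the image names, so version and number cannot be told apart. Over the members the median difference was 0.48 among version 2.2.3 pools and 0.16 among version 2.2.4 pools, beside 0.06 and -0.01 over all features. The difference was positive in both versions for 47 members, negative in both for 4 and of opposite sign for 16. For the 7 genes that rose, every LPS pool lay above every air pool, so a positive difference within each version was fixed in advance. Its size in version 2.2.3 and 2.2.4 was 1.16 and 0.68 for Rps26 and 1.36 and 0.64 for Rps27l. It was 0.995 and 0.52 for Rpl10a and 1.44 and 0.40 for Rpl15. Rpl36a differed by 0.73 and 0.56, Rpl28 by 0.64 and 0.42, and Rpl7a by 0.70 and 0.48, in the same order. A test of the difference between versions (limma interaction) called 0 of 66 members, against 8.95% of all features, and the smallest adjusted p among the members was 0.0522. At an unadjusted p under 0.05 it picked 12 of the 66, beside 30.7% of all features. Within version 2.2.3 alone 19 members were higher (28.8%, against 14.7% of all features) and 2 lower (8.36% of all features). Within version 2.2.4 alone 3 were higher, 4.48% of the members and 4.35% of all features.

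**Figure D3:**
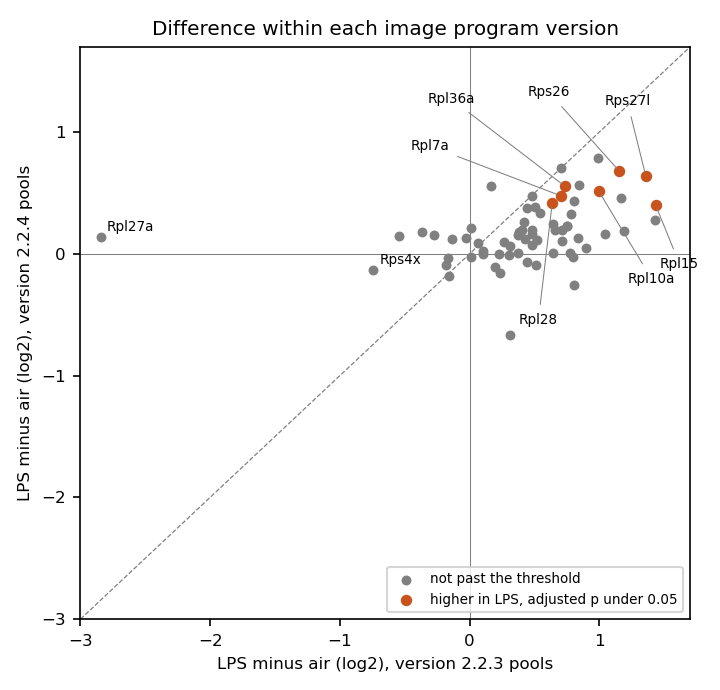
LPS minus air difference (log2) of each gene among the version 2.2.3 pools on the x axis and among the version 2.2.4 pools on the y axis, 2 pools of each exposure per version. The 7 genes that rose are in orange and lie below the dashed line of equal difference. They are positive on both axes, which groups without overlap make certain. Rpl27a is at -2.84 on the x axis and 0.14 on the y axis.

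The 2 dye orientations gave like medians, 0.32 with lung in Cy3 and 0.38 with lung in Cy5. The sign was positive in both orientations for 49 members, negative in both for 4 and opposite for 14. Since the members' probes are bright, the brightest 10% of features serve as a further background: over these 2063 features, 57 of which are members, the median difference was 0.07, 60.1% were positive and 11.5% rose. The members' share that rose, 10.4%, was thus close to that of the brightest features.

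In air lungs most of these genes lay below the reference RNA. In air pools 63 of the 67 were below the reference at an adjusted p under 0.05 (limma), against 24.2% of all features, and 1 was above it (Rpl27a), against 23.6%. The Rpl27a probe used averaged 1.83, with air pool 4 at 4.05 on 1 array. Second, dimmer probes averaged on the other side of the reference in air pools for Rpl27a (-0.24), Rpl30 (0.23), Rps12 (0.20) and Rps18 (0.15). Of these second probes, only that of Rpl27a is annotated to a RefSeq mRNA. For Rplp0 the second probe was on the same side (-2.13). The median level over the members was -1.63 in air lungs. Rpl37, a zinc-binding large subunit protein, Rpl14 and Rpl39l did not differ from the reference past the threshold, with -0.12 ± 0.14, -0.18 ± 0.15 and 0.19 ± 0.10 (SE) in air pools. The test leaves out the spread of the reference itself, which is 1 RNA on every array. The rises after LPS thus brought Rps26, Rpl10a, Rpl36a, Rpl28, Rpl15, Rpl7a and Rps27l nearer to the reference, and all 7 were still below it in every LPS pool.

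Genes that serve the production of ribosomes were set beside the members. Of 54 ribosome assembly factors tested, 9 rose (16.7%) and 0 fell, beside 5.95% and 0.713% of all features, with a median difference of 0.22. Npm1, the nucleolar chaperone nucleophosmin, had -1.77, -1.74, -1.84 and -2.10 in the LPS pools, against -2.71, -2.61, -3.01 and -2.68 in the air pools, and rose by 0.89 ± 0.14 (limma adjusted p = 0.0048). Rrp15, a nucleolar protein of large subunit assembly, rose by 1.08 ± 0.18 (limma adjusted p = 0.0066), with a lung signal of 2.96 times the background. Nmd3, the export adaptor of the large subunit, rose by 0.83 ± 0.17 (limma adjusted p = 0.0192).

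Of 15 genes of RNA polymerase I and its factors, which make the large ribosomal RNAs, 2 rose (13.3%, beside 5.95% of all features) and 0 fell, with a median of 0.10. The polymerase subunit Znrd1 rose by 0.86 ± 0.18 and Taf1d, part of the promoter selectivity factor, by 0.63 ± 0.15 (limma adjusted p = 0.0186 and 0.0306). Rrn3, which makes the polymerase ready for initiation, differed by 0.44 ± 0.14 and did not pass the test. Of 20 translation factors and other mRNAs, most of them with a 5′ TOP element, 2 rose (10%, beside 5.95% of all features), with a median of 0.32. Pabpc1, the poly(A)-binding protein, had -1.85, -2.15, -1.95 and -1.90 in the LPS pools, against -2.77, -2.78, -3.25 and -3.03 in the air pools, and rose by 0.996 ± 0.15 (limma adjusted p = 0.0032). Btf3, which with Naca forms the complex on nascent chains at the tunnel exit, rose by 0.91 ± 0.17 (limma adjusted p = 0.0119), and Naca differed by 0.67 ± 0.18 without passing (limma adjusted p = 0.0563).

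Of 20 genes of mTOR and Myc control, 0 passed the test with limma, and 6 had an unadjusted p under 0.05. Of these, 4 were higher (20% of the list, beside 14.8% of all features) and 2 lower (beside 7.72% of all features). The smallest p-values belonged to the S6 kinase Rps6kb2, at -0.50 ± 0.15, and the cap-binding protein Eif4e, at 0.60 ± 0.18, followed by Larp1, which binds TOP mRNAs, at 0.38 ± 0.14. Of 5 relatives of ribosomal proteins outside the rule, Rpl36al, the autosomal paralog of Rpl36a, rose by 0.51 ± 0.13 (limma adjusted p = 0.0429), with -0.55, -0.64, -0.29 and -0.58 in the LPS pools, against -0.88, -1.03, -1.14 and -1.04 in the air pools. Fau, which encodes a small subunit protein fused to a ubiquitin-like domain, differed by 0.42 ± 0.18, and Rpl7l1 by -0.14 ± 0.12. Of 76 mitochondrial ribosomal proteins, which serve the separate ribosome of the mitochondrion, 7 rose (9.21%, beside 5.95% of all features) and 0 fell, with a median of 0.13.

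**Figure D4:**
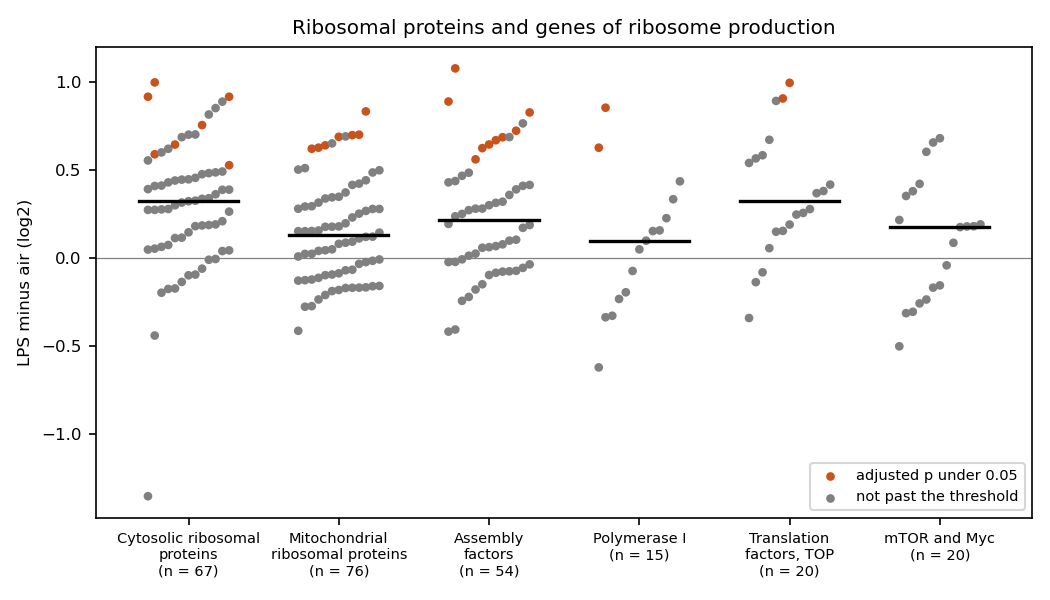
LPS minus air difference (log2, y axis) of the genes of 6 lists, with each gene as a point, orange where its adjusted p was under 0.05, and the list's median as a line. The medians are 0.33 for cytosolic ribosomal proteins, 0.13 for mitochondrial ones, 0.22 for assembly factors, 0.10 for polymerase I, 0.32 for translation factors and TOP mRNAs and 0.18 for mTOR and Myc.

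Some cell type markers moved with the exposure, beside 5.95% of all features that rose. Of 7 macrophage markers measured, 4 rose, and the list's median level ran from 2.04 to 2.38 in LPS pools and from -0.08 to 0.49 in air pools. Of 6 neutrophil markers, 3 rose, with a median level of 1.21 to 2.48 in LPS pools and 0.49 to 1.13 in air pools. Of 7 markers of dividing cells, Cdk1 and Top2a rose, by 1.57 and 1.49. The other 5 did not pass the test, with differences from -0.10 for Ccnb2 to 0.64 for Ccna2. The list's median level ran from -2.30 to -1.48 in LPS pools and from -2.50 to -1.81 in air pools. Of 6 T cell markers 0 passed the test and of 4 B cell markers 0 (limma). At an unadjusted p under 0.05, 1 T cell marker (Cd8a) was higher, beside 14.8% of all features. In the lower direction were 1 T cell marker (Cd2) and 2 B cell markers (Blk and Cd79b), beside 7.72% of all features. All 5 markers of type 2 cells, the surfactant-making cells of the lung, were above the reference RNA in air lungs at an adjusted p under 0.05 (limma), and 0 of them passed the test between LPS and air, or had an unadjusted p under 0.05 there. Of 3 markers of type 1 cells, which form the thin gas exchange surface, Pdpn rose by 1.34 ± 0.17 (SE, limma adjusted p = 0.00119). Ager differed by 0.49 ± 0.26 and Hopx by -0.29 ± 0.39 (SE), and neither passed the test. The list's median level ran from 1.79 to 2.02 in LPS pools and from 0.60 to 2.04 in air pools. Scgb1a1, the club cell marker measured, differed by 1.26 ± 0.53 (SE) without passing the test (limma adjusted p = 0.191), and of 3 endothelial markers 0 passed or had an unadjusted p under 0.05. In whole lung RNA a change in the share of a cell type and a change in RNA per cell cannot be told apart, and the part of these cells in the ribosomal protein differences was not tested.

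**Figure D5:**
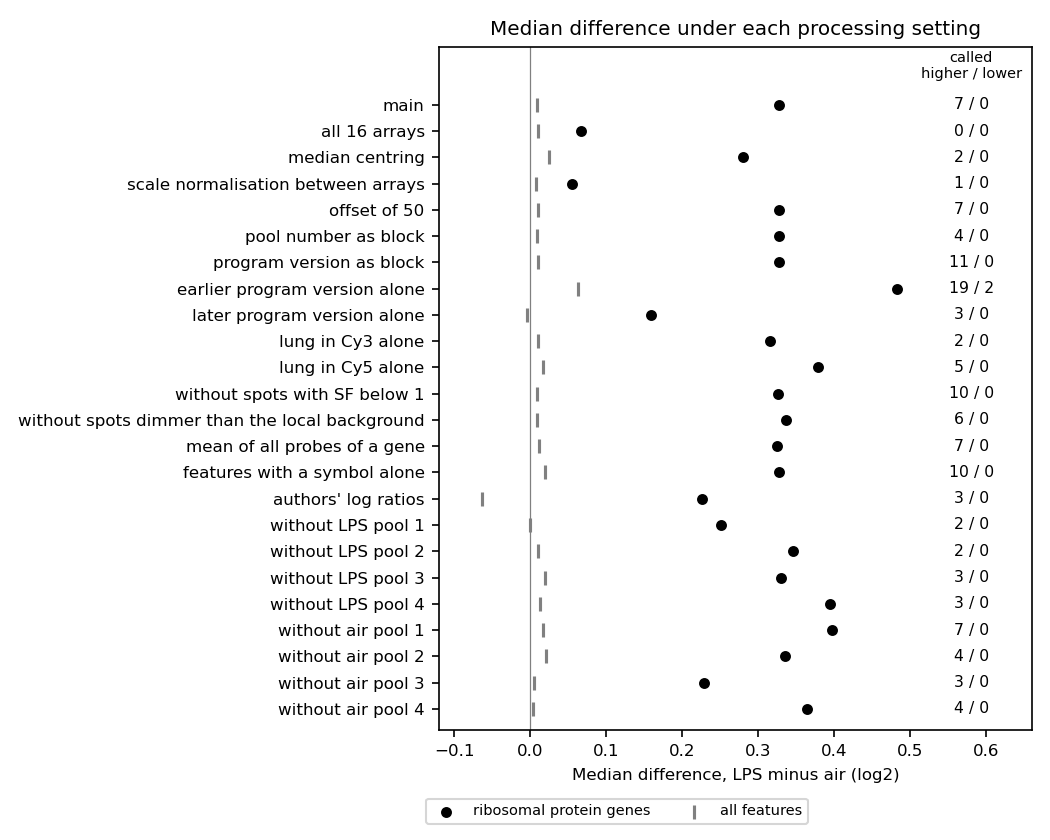
Median LPS minus air difference (log2, x axis) over the ribosomal protein genes (points) and over all features (ticks) under the processing used (main) and each alternative, with the number of members called higher and lower at the right. The member median stayed above 0 in all 23 alternatives, from 0.05 with scaling between arrays to 0.48 in the earlier program version, and the number called higher ran from 0 to 19.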

How the data were processed

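Lung RNA of 4 LPS and 4 air pools was hybridised with the dyes exchanged between a pool's 2 arrays, with 5 µg of RNA per labelling per the labels. The rule for members uses symbols alone, but the group of genes and the lists were picked with earlier results of these data known.

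Per the file headers, spot intensity was integrated with TIGR Spotfinder 2.2.3 or 2.2.4. The deposited intensity columns already had the background subtracted and were not normalised. The files also hold a deposited score per spot (SF), undefined there. A deposited table gives the authors' log2 ratios, and its centring is unknown. Set against the loess ratios of the same spots, its columns had the direction lung over reference with slopes of 0.961 to 0.997 (r 0.982 to 0.998). The column of air pool 4 with lung in Cy3, with a slope of 0.297, was on the log10 scale as deposited. The medians of the authors' columns as deposited, in pool order, were -0.0529, 0.0125, -0.136 and -0.129 (LPS, lung in Cy3), -0.0448, -0.0355, 0.0471 and 0.0342 (LPS, lung in Cy5), -0.0186, -0.0958, 0.0514 and 0.00332 (air, lung in Cy3, the last on the log10 scale), and 0.0590, 0.0860, 0.0889 and 0.0782 (air, lung in Cy5).

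In the spot table of air pool 4 in Cy3, the Cy5 values correlated at r = 0.998 with those of air pool 3's other array, and at most 0.958 with any other, and its headers name that array's image. It was left out. Spot numbers were laid over the annotation with both axes exchanged and turned, which gave r = 0.523 between the probes of a gene over 1030 pairs in air pools, against at most 0.0701 for the 7 other placements.

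Using R 4.3.3 and limma 3.58.1, the log2 ratios of positive spots were normalised by loess within arrays, turned to lung over reference and averaged to pools. Features with at least 3 pools per group were fitted (lmFit, eBayes, two-sided, Benjamini-Hochberg, threshold 0.05). Each gene was represented by its brightest probe. The fit was checked on simulated data. Genes named are the 8 members with the smallest p in each direction, 18 members by name and up to 3 genes per related list, by p. Alternatives changed the arrays, normalisation, offset, blocks, dyes, spot filters, probes and pools. Promoter sequences and gene positions are from RefSeq GRCm38.p6, and all 67 members matched its gene table.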

Additional observations from a re-analysis of the deposited data

Results flagged for a closer look

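Within groups of 4 pools, 2 values stood far from the other 3. Rpl10a in air pool 3 was at -2.55, while the other air pools lay between -2.12 and -2.07. Rpl28 in LPS pool 3 was at -1.58, while the other LPS pools lay between -1.40 and -1.38. Of 62 groups of 4 examined, 2 were marked in this way, and chance marks about 1 in 20.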

How the results depend on the processing

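The median difference over the members was 0.33 and stayed above 0 in every alternative tried. It was 0.0668 with all 16 arrays and 0.0542 with scaling between arrays, and 0.23 to 0.40 when 1 pool was left out. Members higher in LPS numbered 7, but 0 with all 16 arrays, 2 with median centring, 1 with scaling, 11 with the program version as a block, 19 in the earlier and 3 in the later version alone, 2 with lung in Cy3 alone, 3 with the authors' ratios and 2 to 7 with 1 pool left out. The version block called 16.4% of members higher, against 8.72% of all features, and lung in Cy3 alone 2.99%, against 1.99%. With the authors' ratios the members' share, 4.48%, was not above the 4.62% of all features. Members lower in LPS numbered 0, but 2 (Rps4x and Rpl27a) in the earlier version alone. Of all features 1375 differed, but 501 with all 16 arrays, 735 with median centring, 2265 with the version block, 4707 in the earlier version, 416 with lung in Cy3 alone and 711 to 1262 with 1 pool left out. Of calls over all features 89.3% were higher, but 63.8% in the earlier and 77.9% in the later version alone. The count of members above the reference in air lungs was 1, but 2 in the earlier version, 0 with lung in Cy3 and 2 with lung in Cy5. With the pool number as a replicate block, 4 members (Rps26, Rps27l, Rpl10a and Rpl15) and 857 features were called. The members called higher were 5.97% there, against 3.85% of all features. Same-numbered pools did not deviate together (r = -0.04, -0.26, -0.05 and -0.25). Each such pair was split between the 2 program versions, so these values cannot decide whether the numbers pair the pools. Of the named members' values under alternatives, 592 stayed on their side of the threshold and within 1 SD where not called, 71 lost the call, 7 gained one, 20 moved by more than 1 SD, and 0 called values reversed. The causes were not tested.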
